A study of Homo sapiens with 6 samples.

Results

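The BCL2 family decides, at the outer mitochondrial membrane, whether a stressed cell survives or dies, and 10 of its transcripts were followed here through silencing of CIP2A in HCC38 cells. The 10 were taken by gene symbol from a count table of 26485 genes: BCL2, BCL2L1, BCL2L2 and MCL1, which keep cells alive, and BAK1, BCL2L11, BID, BAD, BMF and PMAIP1, which promote death. Each of the 10 had enough reads to be tested, among 13562 genes that did. HCC38 is an established human line from a breast ductal carcinoma of the triple-negative, basal-like class. CIP2A is an oncoprotein that inhibits the phosphatase PP2A.

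Polyadenylated RNA was sequenced from 6 libraries. The siCIP2A group held 3 libraries, each made with a different CIP2A siRNA (siCIP2A#1, siCIP2A#2 and siCIP2A#3). The control group held 3 libraries: a pair made with non-targeting siRNAs (SCR#2 and SCR#3) and 1 mock library (Mock). One label gives the mock as transfection reagent without siRNA, while the protocol text calls it a non-transfected control. All the siRNAs were delivered with Oligofectamine into the same line, and the time of harvest is not given in the sources used here. Each reagent has 1 library and nothing states separate cultures. The p-values therefore rest on spread between libraries made with different reagents, where reagent and technical differences cannot be told apart. Spread between separate cultures may be absent from it. Total counts were 15547526 to 18161451 in the siCIP2A libraries and 13995187 to 17116379 in the control libraries. CIP2A itself, the silenced gene, stood at 16.6, 45.6 and 19.3 CPM (counts scaled to the library total) with siCIP2A#1, #2 and #3, against 97.0, 99.7 and 103 CPM in Mock, SCR#2 and SCR#3. Among the markers of the labelled cell type, EGFR and FOXC1 were detected, while the basal keratin KRT14 had 0 counts in every library and KRT5 and KRT17 had at most 1.

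As a group, BCL2, BCL-XL (from BCL2L1), BCL-W (from BCL2L2) and MCL1 hold back the pore-forming effector BAK1 and its relative BAX. The BH3-only proteins BIM (BCL2L11), BID, BAD, BMF and NOXA (PMAIP1) occupy the groove of the survival proteins, and BIM and BID can also activate the effectors directly. Once the effectors perforate the membrane, cytochrome c escapes and caspases are activated. Much of this control lies in phosphorylation, cleavage and turnover of the proteins, which transcript counts do not show.

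The promoter windows of 3 death members are shown because 2 of them, BMF and BAK1, had the widest ranges of level across the 6 libraries, and because PMAIP1 is a known target of the stress factors ATF4 and CHOP, whose transcripts are given further on. Each window is RefSeq sequence (GRCh38.p14) running from 250 bases before to 50 bases after an annotated start, 5′ to 3′ on the gene's strand. Capitals mark GGGCGG (the GC box core) on either strand and, in PMAIP1, TGACGT (the core bound by ATF and CREB factors), which lies there on the opposite strand as ACGTCA. The windows lie at chr15:40108830-40109129 on the minus strand for BMF, at chr6:33580227-33580526 on the minus strand for BAK1 and at chr18:59899746-59900045 on the plus strand for PMAIP1.
BMF: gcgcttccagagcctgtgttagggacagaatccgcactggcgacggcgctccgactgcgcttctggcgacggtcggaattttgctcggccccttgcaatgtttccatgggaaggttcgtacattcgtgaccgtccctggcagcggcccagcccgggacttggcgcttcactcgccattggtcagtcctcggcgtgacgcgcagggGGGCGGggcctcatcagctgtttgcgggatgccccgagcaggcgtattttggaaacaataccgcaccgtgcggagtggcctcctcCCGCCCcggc
BAK1: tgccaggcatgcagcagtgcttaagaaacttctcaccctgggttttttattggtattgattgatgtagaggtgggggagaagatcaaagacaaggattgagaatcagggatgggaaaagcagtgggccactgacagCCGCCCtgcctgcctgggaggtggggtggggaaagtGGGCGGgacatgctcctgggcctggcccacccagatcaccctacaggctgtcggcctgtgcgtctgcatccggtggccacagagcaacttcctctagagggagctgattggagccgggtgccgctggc
PMAIP1: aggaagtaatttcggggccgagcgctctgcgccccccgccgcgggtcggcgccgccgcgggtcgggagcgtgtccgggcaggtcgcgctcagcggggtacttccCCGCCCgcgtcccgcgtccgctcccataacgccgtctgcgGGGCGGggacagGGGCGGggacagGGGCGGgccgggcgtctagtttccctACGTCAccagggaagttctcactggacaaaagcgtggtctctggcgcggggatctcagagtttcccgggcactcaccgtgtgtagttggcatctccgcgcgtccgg

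Windows were matched for 8 of the 10 genes, 15 windows in all, BCL2L2 and MCL1 being named only. On both strands, GGGCGG was found in 11 of the 15 windows, against 45.0% of 35116 promoter windows of the same length. TGACGT was found in 3 of the 15, against 7.98% of all windows. These were the PMAIP1 window and both BAD windows, which overlap and hold the same site. CACGTG (the E-box bound by MYC) was in 2 overlapping BID windows, again at the same site, against 7.26%. GTAAACA (the forkhead core) was in the BCL2L11 window, against 3.42%. TGATGNAA (the C/EBP-ATF composite) was in 0 of the 15, against 3.62%, and TGANTCA (the AP-1 core) in 0, against 7.71%. The 6 motifs were searched separately, so matches of different motifs may share bases, as TGACGT and CACGTG can. Windows of 1 gene can also share bases, as those of BAD and BID do, so GGGCGG sites there were counted repeatedly. A match describes letters only.

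Of the survival transcripts, MCL1 and BCL2L1 stood at the top of the family and BCL2 at the bottom. Divided by exon length, MCL1 stood at 84.1 to 122 CPM per kilobase in the siCIP2A libraries and 89.3 to 102 in the controls. BCL2L1 followed at 81.8 to 90.8 CPM per kilobase in the siCIP2A libraries and 77.6 to 86.3 in the controls. Every death member lay well below both, the highest being BAD at 23.1 to 27.2 CPM per kilobase in the siCIP2A libraries and 17.5 to 24.8 in the controls. PMAIP1 came next, at 15.9 to 17.1 CPM per kilobase in the siCIP2A libraries and 12.3 to 17.2 in the controls. BAK1 followed, at 12.6 to 16.6 CPM per kilobase in the siCIP2A libraries and 10.2 to 11.9 in the controls. BMF, BCL2L2 and BID formed a group whose control ranges overlapped (6.59 to 9.14, 6.90 to 8.59 and 6.26 to 7.20 CPM per kilobase), so their order in the controls is not fixed by these libraries. BCL2L11 lay below them at 2.45 to 3.04 CPM per kilobase in the siCIP2A libraries and 2.21 to 2.76 in the controls. BCL2, the founding member, was last at 0.423 to 0.466 CPM per kilobase in the siCIP2A libraries and 0.335 to 0.508 in the controls. Its level in the 6 libraries rests on 84 to 98 reads with the CIP2A siRNAs and 55 to 88 reads in the controls. Outside that group of 3, no neighbours in the order overlapped within the controls. Within the siCIP2A libraries, MCL1 overlapped BCL2L1, PMAIP1 overlapped BAK1, and BMF, at 6.14 to 15.5 CPM per kilobase, spread across the levels of BAK1, BCL2L2 and BID.

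**Figure D1:**
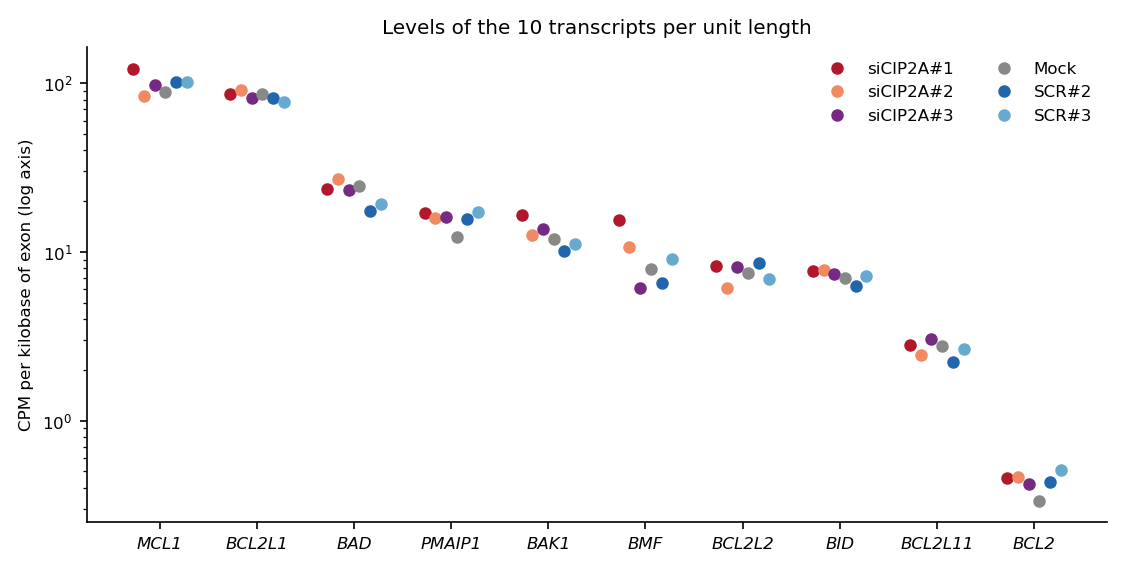
CPM per kilobase of exon (log axis) of the 10 transcripts, ordered by their control mean, with 1 point for each of the 6 libraries. MCL1 and BCL2L1 lie highest, near 100 and 80, and BCL2 lies lowest, under 1.

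Shares of the summed family level gave the same picture. MCL1 supplied 37.1% ± 4.11 of the family's CPM per kilobase with the CIP2A siRNAs and 38.8% ± 2.70 in the controls (SD, n = 3 each). BCL2L1 supplied 31.9% ± 3.16 with the CIP2A siRNAs and 32.6% ± 1.91 in the controls. BCL2 supplied 0.166% with the CIP2A siRNAs and 0.169% in the controls.

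With the CIP2A siRNAs taken as a group, no member passed the threshold. By the quasi-likelihood test of edgeR (adjusted over all tested genes by Benjamini-Hochberg, threshold 0.05), 0 of the 10 members were called, against a background of 0% of 13562 genes. The silenced gene CIP2A was not called either, although each of its siCIP2A values lay below every control value. A missing call in this comparison therefore does not show that a level was unchanged. At an unadjusted p under 0.05, 1 of the 10 members (BAK1) was reached, against 2.72% of all tested genes, 369 in number. Every member had an adjusted p of 0.999. DESeq2 called 3 genes in the same comparison, none of them a member. In bulk RNA, fewer cells of a type and less RNA per cell cannot be told apart.

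Gene positions are from GENCODE 29 on GRCh38. Among the survival members, MCL1 (chr1:150574551-150579738, minus strand), a short-lived protein that binds BAK1 and NOXA, had 499, 343 and 401 CPM with siCIP2A#1, #2 and #3, against 365, 418 and 413 CPM in Mock, SCR#2 and SCR#3. The highest and the lowest MCL1 values of the 6 libraries both came from CIP2A siRNAs, so the groups overlapped. The log2 difference was 0.04 (SE 0.12, 95% interval -0.22 to 0.29), and it was -0.11 without siCIP2A#1. BCL2L1 (chr20:31664452-31723989, minus strand), which encodes BCL-XL, had 248, 259 and 234 CPM with siCIP2A#1, #2 and #3, against 247, 233 and 222 CPM in Mock, SCR#2 and SCR#3. It was the steadiest of the 10, with a range of 0.23 on the log2 scale across the 6 libraries, and its log2 difference was 0.06 (SE 0.09, 95% interval -0.13 to 0.25). A stretch of 42.8% of its exonic bases lies antisense to ABALON, which had 0 to 7 counts a library.

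BCL2L2 (chr14:23298790-23311759, plus strand), which encodes BCL-W, had 29.6, 21.9 and 29.3 CPM with siCIP2A#1, #2 and #3, against 26.9, 31.0 and 24.9 CPM in Mock, SCR#2 and SCR#3. The siCIP2A#2 library was the lowest of the 6 and the other two CIP2A siRNAs lay inside the control range. The log2 difference of the group was -0.05 (SE 0.14, 95% interval -0.36 to 0.25), and 0.07 without siCIP2A#2. BCL2L2 shares 16.3% of its exonic bases with the readthrough gene BCL2L2-PABPN1, to which 0 counts were assigned in every library, and how the counting divided such reads is not given in the sources used here. BCL2 (chr18:63123346-63320128, minus strand) had 5.40, 5.47 and 4.96 CPM with siCIP2A#1, #2 and #3, against 3.93, 5.08 and 5.97 CPM in Mock, SCR#2 and SCR#3. All 3 siCIP2A values lay inside the control range, with a log2 difference of 0.06 (SE 0.19, 95% interval -0.36 to 0.48). Its direction turned to -0.07 when the mock library was left out.

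BAK1 (chr6:33572547-33580293, minus strand), the effector that forms the pore, had 36.6, 27.9 and 30.1 CPM with siCIP2A#1, #2 and #3, against 26.4, 22.6 and 24.6 CPM in Mock, SCR#2 and SCR#3. Every siCIP2A value was above every control value. Its mean was 31.5 ± 4.56 CPM with the CIP2A siRNAs and 24.5 ± 1.91 CPM in the controls (SD, n = 3 each), a log2 difference of 0.35 (SE 0.13, 95% interval 0.07 to 0.63, 1.27-fold). Its unadjusted edgeR p was 0.0192, rank 119 of the 13562 genes, and its adjusted p of 0.999 did not pass. Permuting the group labels exhaustively (exact, two-sided) gave BAK1 p = 0.10, the smallest value that 3 against 3 allows. BID (chr22:17734138-17774770, minus strand), the BH3-only protein that caspase-8 cleaves to link death receptors to mitochondria, had 21.6, 22.0 and 20.8 CPM with siCIP2A#1, #2 and #3, against 19.6, 17.6 and 20.2 CPM in Mock, SCR#2 and SCR#3. These groups also did not overlap, with a log2 difference of 0.15 (SE 0.12, 95% interval -0.11 to 0.41) and an exact two-sided permutation p of 0.10. Counted over the family, 2 of the 10 members had all siCIP2A values above all control values, against 3.26% of tested genes, and 0 of the 10 had them below, against 4.38%. An exact permutation p for the other members was 0.30 (BAD) or above.

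**Figure D2:**
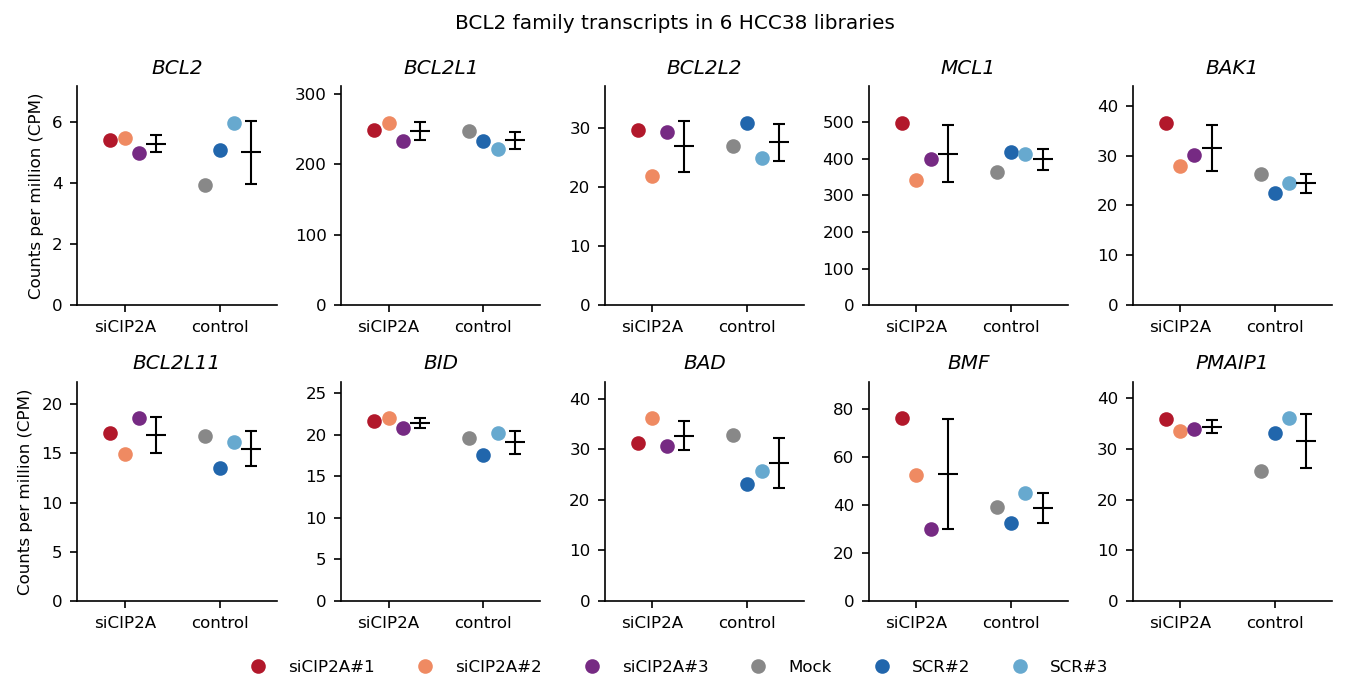
CPM of each member (each panel from 0), with 1 point per library, siCIP2A on the left and control on the right, and the mean ± SD of 3 libraries as a bar beside the points. BAK1 and BID are the panels without overlap; BMF has the widest spread, 30.2 to 76.2 CPM, within the CIP2A siRNAs.

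BAD (chr11:64269830-64284704, minus strand), a BH3-only protein that survival kinases keep phosphorylated and inactive, had 31.3, 36.1 and 30.7 CPM with siCIP2A#1, #2 and #3, against 32.9, 23.2 and 25.7 CPM in Mock, SCR#2 and SCR#3. The CIP2A siRNA libraries lay above both non-targeting siRNAs, while the mock lay among them. The log2 difference was 0.25 (SE 0.14, 95% interval -0.07 to 0.56), and it was 0.41 without the mock and 0.14 without SCR#2. BAD shares 7.84% of its exonic bases with GPR137 on the other strand, and GPR137 was also high in the mock, at 49.1, 52.5 and 43.5 CPM with siCIP2A#1, #2 and #3, against 56.0, 37.1 and 39.4 CPM in Mock, SCR#2 and SCR#3. The strand setting of the counting is not given in the sources used here. The part of GPR137 reads in the BAD values was not tested.

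BCL2L11 (chr2:111119378-111168447, plus strand), which encodes the broad activator BIM, had 17.0, 14.9 and 18.5 CPM with siCIP2A#1, #2 and #3, against 16.8, 13.5 and 16.1 CPM in Mock, SCR#2 and SCR#3. The groups overlapped and the log2 difference was 0.11 (SE 0.14, 95% interval -0.20 to 0.41). It shares 11.9% of its exonic bases with MIR4435-2HG on the other strand. PMAIP1 (chr18:59899948-59904306, plus strand), which encodes the MCL1 partner NOXA, had 35.8, 33.4 and 33.9 CPM with siCIP2A#1, #2 and #3, against 25.7, 33.1 and 36.0 CPM in Mock, SCR#2 and SCR#3. The 3 CIP2A siRNAs lay within 0.07 of each other on the log2 scale, and the low library was the mock. Its log2 difference of 0.10 (SE 0.13, 95% interval -0.17 to 0.38) was -0.01 without the mock.

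BMF (chr15:40087890-40108892, minus strand), the BH3-only protein tied to the cytoskeleton through dynein light chain and released on loss of attachment, had 76.2, 52.7 and 30.2 CPM with siCIP2A#1, #2 and #3, against 39.1, 32.4 and 44.9 CPM in Mock, SCR#2 and SCR#3. The CIP2A siRNAs held the 2 highest values and the lowest one, and the means were 53.0 ± 23.0 CPM with the CIP2A siRNAs and 38.8 ± 6.27 CPM in the controls (SD, n = 3 each). The group log2 difference was 0.43 (SE 0.26, 95% interval -0.13 to 1.00, unadjusted edgeR p of 0.120). It was 0.09 without siCIP2A#1 and 0.71 without siCIP2A#3. BMF shares 9.38% of its exonic bases with the antisense gene BMF-AS1, which was not analysed here.

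Read by role, the 6 death members all had a log2 difference above 0, with a median of 0.20 and a range of 0.10 to 0.43. Of the 4 survival members, 3 were above 0, with a median of 0.05. Over all tested genes, 49.7% were above 0 and the median was -0.0011. None of these differences passed the test, and the members share the same 6 libraries.

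**Figure D3:**
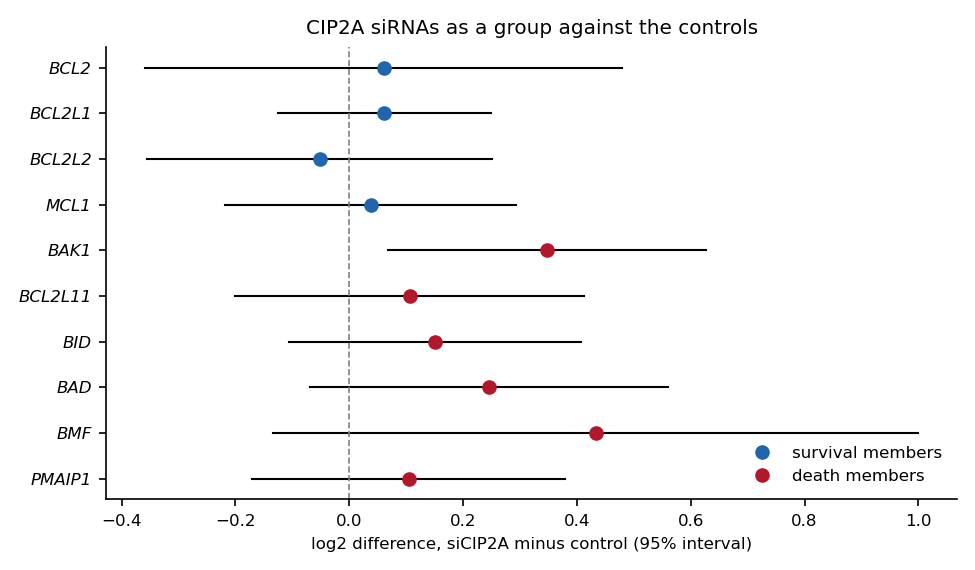
Log2 difference of siCIP2A minus control for each member (points, survival members in blue and death members in red) with its 95% interval from edgeR (lines); the dashed line marks 0. Only the BAK1 interval, 0.07 to 0.63, lies wholly above 0.

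The summed level of the survival members divided by that of the death members was 2.62, 2.36 and 2.71 with siCIP2A#1, #2 and #3, against 2.75, 3.30 and 2.79 in Mock, SCR#2 and SCR#3, all from CPM per kilobase. The means were 2.56 ± 0.180 with the CIP2A siRNAs and 2.95 ± 0.303 in the controls (SD, n = 3 each). The groups missed each other by a narrow gap, between 2.71 with siCIP2A#3 and 2.75 in Mock. The survival sums were 218, 181 and 188 CPM per kilobase with siCIP2A#1, #2 and #3, against 184, 193 and 186 in Mock, SCR#2 and SCR#3. The death sums were 83.2, 76.7 and 69.5 CPM per kilobase with siCIP2A#1, #2 and #3, against 66.6, 58.5 and 66.6 in Mock, SCR#2 and SCR#3. On this scale, with every death member summed, only the death sums separated the groups. Without the division by length the death sums overlapped, siCIP2A#3 lying below SCR#3. How often sums of other genes separate in this way was not tested. The ratio has no test here. Its groups overlapped once BCL2L1, MCL1, BAK1, BAD, BMF or PMAIP1 was not summed, or when CPM was not divided by length, and did not overlap without BCL2, BCL2L2, BCL2L11 or BID.

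Each CIP2A siRNA was then set against the 3 controls, in a fit whose spread comes from the controls alone, since each siRNA has 1 library. These comparisons share their control libraries. No member was called with siCIP2A#1, siCIP2A#2 or siCIP2A#3 by edgeR's quasi-likelihood test, against backgrounds of 0.118%, 0.0737% and 0.00737% of the 13562 genes. At an unadjusted p under 0.05, 3 of the 10 were reached with siCIP2A#1 (background 9.95%), 1 with siCIP2A#2 (11.6%) and 0 with siCIP2A#3 (8.22%). Of the members, 4 stood above all controls with siCIP2A#1 and none below, 5 above and 2 below with siCIP2A#2, and 3 above and 1 below with siCIP2A#3. Over all tested genes 26.5%, 28.6% and 25.7% stood above, and 28.8%, 30.7% and 28.6% below.

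BMF had the largest single-siRNA difference of the 10 members. Its log2 difference from the controls was 0.94 with siCIP2A#1 (SE 0.16, 95% interval 0.57 to 1.31, 1.92-fold, unadjusted edgeR p of 3.29e-04, adjusted p of 0.0849). It was 0.44 with siCIP2A#2 (SE 0.17, adjusted p of 0.386) and -0.37 with siCIP2A#3 (SE 0.18, adjusted p of 0.634). DESeq2 called the siCIP2A#1 value at 0.95 (adjusted p of 0.00159), and edgeR called it without SCR#2 (0.82, adjusted p of 0.00623) and without SCR#3 (1.05, adjusted p of 1.48e-04) but not without the mock (0.96, adjusted p of 0.0666).

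The difference between siRNAs was itself tested for BMF. It rose with siCIP2A#1 relative to siCIP2A#3 by 1.31 on the log2 scale (SE 0.21, 2.49-fold, 95% interval 0.83 to 1.80, edgeR adjusted p of 0.0476). BMF was 1 of 69 genes called between these libraries, 0.509% of those tested, and 1 of 49 called higher, 0.361%. No other member was called between any 2 of the siRNAs, where 0.0147% of genes were called for siCIP2A#1 against siCIP2A#2 and 0% for siCIP2A#2 against siCIP2A#3. The call sits at the threshold: its adjusted p ran from 2.93e-05 to 0.0516 over 9 alternatives, and it was lost with RLE scaling (1.31, adjusted p of 0.0514) and with a stricter filter on low counts (1.32, adjusted p of 0.0516). The difference of siCIP2A#2 from siCIP2A#3 was 0.81 (SE 0.22, adjusted p of 0.186) and that of siCIP2A#1 from siCIP2A#2 was 0.50 (adjusted p of 0.391). A difference between 2 CIP2A siRNAs compares 1 library with 1 library.

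The marker lists of cell types were read beside BMF. The summed epithelial markers (EPCAM, CDH1, KRT8, KRT18 and KRT19, 5 of 5 in the table and 4 tested, none at 0 in every library) stood at 1169, 934 and 650 CPM with siCIP2A#1, #2 and #3, against 932, 719 and 822 CPM in Mock, SCR#2 and SCR#3. KRT8 and KRT18 made up nearly all of this sum, at 446 and 721 CPM with siCIP2A#1. EPCAM, CDH1 and KRT19 had only 2 to 18 counts a library. Among the CIP2A siRNAs, CDH1 followed the order of the sum, while EPCAM and KRT19 were highest with siCIP2A#2. The summed fibroblast markers (COL1A1, COL1A2, PDGFRB and DCN, 4 of 4 in the table and 3 tested, none at 0 in every library) stood at 18.3, 9.07 and 6.14 CPM with siCIP2A#1, #2 and #3, against 7.36, 7.71 and 6.51 CPM in Mock, SCR#2 and SCR#3. COL1A1, a collagen chain, rose with siCIP2A#1 by 1.52 on the log2 scale against the controls (edgeR adjusted p of 0.0270), with 266 counts in that library and 68 to 102 in the others. The endothelial markers summed to 7.43, 4.76 and 3.60 CPM with siCIP2A#1, #2 and #3, against 3.64, 6.02 and 4.48 CPM in Mock, SCR#2 and SCR#3 (3 of 3 in the table and 2 tested), with CDH5 at 0 throughout. These 3 sums were highest with siCIP2A#1 and lowest with siCIP2A#3 among the CIP2A siRNAs, as BMF was, and the lists for breast types were not. How many of all tested genes take this order was not counted. Within these lists, VWF (7 to 20 counts a library) was lowest with siCIP2A#2, and DCN (3 to 11 counts) was highest with siCIP2A#2. The luminal markers (5 of 5 in the table and 3 tested) summed to 60.7, 76.4 and 62.1 CPM with siCIP2A#1, #2 and #3, against 62.7, 51.2 and 56.2 CPM in Mock, SCR#2 and SCR#3. Nearly all of this was ERBB2, at 58.5, 74.1 and 60.1 CPM with siCIP2A#1, #2 and #3, while ESR1 and PGR had 0 to 6 counts a library. The basal-like markers (6 of 6 in the table and 2 tested) summed to 84.6, 84.3 and 95.3 CPM with siCIP2A#1, #2 and #3, against 92.6, 92.7 and 84.9 CPM in Mock, SCR#2 and SCR#3. Most of this was EGFR, at 74.2, 74.4 and 83.4 CPM with siCIP2A#1, #2 and #3. Leukocyte markers summed to at most 0.257 CPM, with PTPRC at 0. The part of these transcripts in the BMF values was not tested.

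**Figure D4:**
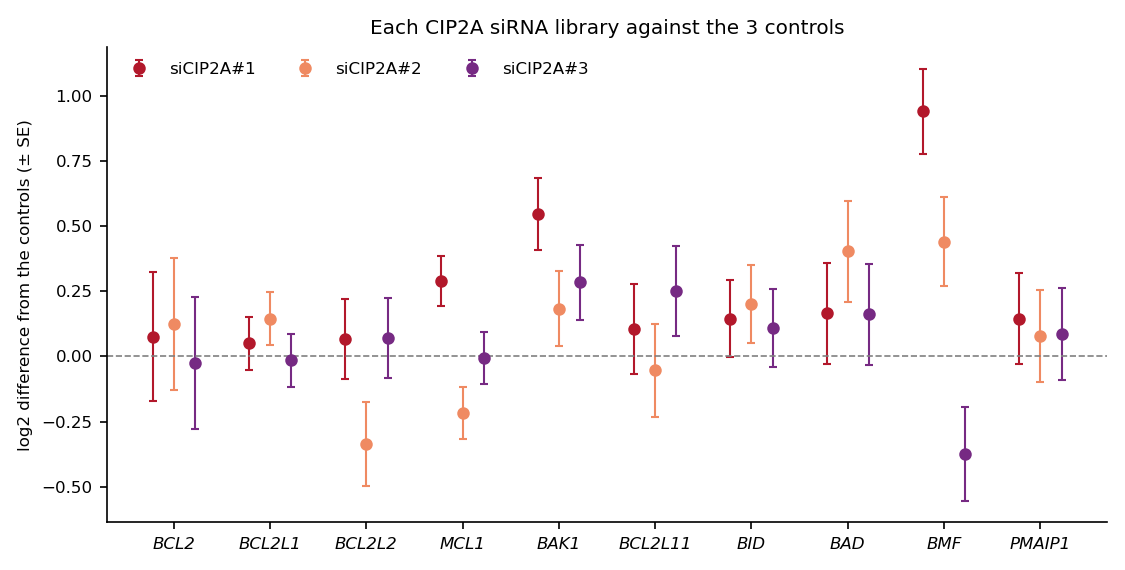
Log2 difference of each CIP2A siRNA library from the 3 controls (points) ± SE from edgeR, for the 10 members; the dashed line marks 0. BMF spans 0.94 with siCIP2A#1 to -0.37 with siCIP2A#3, while BAK1 is above 0 with all 3 siRNAs.

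BAK1 was above 0 with each CIP2A siRNA: 0.55 with siCIP2A#1 (SE 0.14, 1.46-fold, unadjusted edgeR p of 0.00377, adjusted p of 0.217), 0.18 with siCIP2A#2 and 0.28 with siCIP2A#3. MCL1 was 0.29 with siCIP2A#1 (SE 0.10, adjusted p of 0.348), -0.22 with siCIP2A#2 and -0.01 with siCIP2A#3. The difference in MCL1 between siCIP2A#1 and siCIP2A#2 was 0.51 (SE 0.12, unadjusted edgeR p of 0.00253, adjusted p of 0.187), short of the threshold. BCL2L2 was 0.07, -0.34 and 0.07 with siCIP2A#1, #2 and #3. BAD was 0.17, 0.40 and 0.16, and BID 0.15, 0.20 and 0.11, in the same order. BCL2L1 was 0.05, 0.15 and -0.01, BCL2 0.07, 0.12 and -0.02, BCL2L11 0.11, -0.05 and 0.25, and PMAIP1 0.14, 0.08 and 0.09. BAK1, BID, BAD and PMAIP1 were thus the 4 with values above 0 for every CIP2A siRNA, none of them past the threshold. Without the mock, PMAIP1 was -0.04 with siCIP2A#2 and -0.03 with siCIP2A#3. Over all tested genes, 48.8%, 49.4% and 48% were above 0 with siCIP2A#1, #2 and #3. The share above 0 with every CIP2A siRNA was not counted, and the comparisons share their controls.

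**Figure D5:**
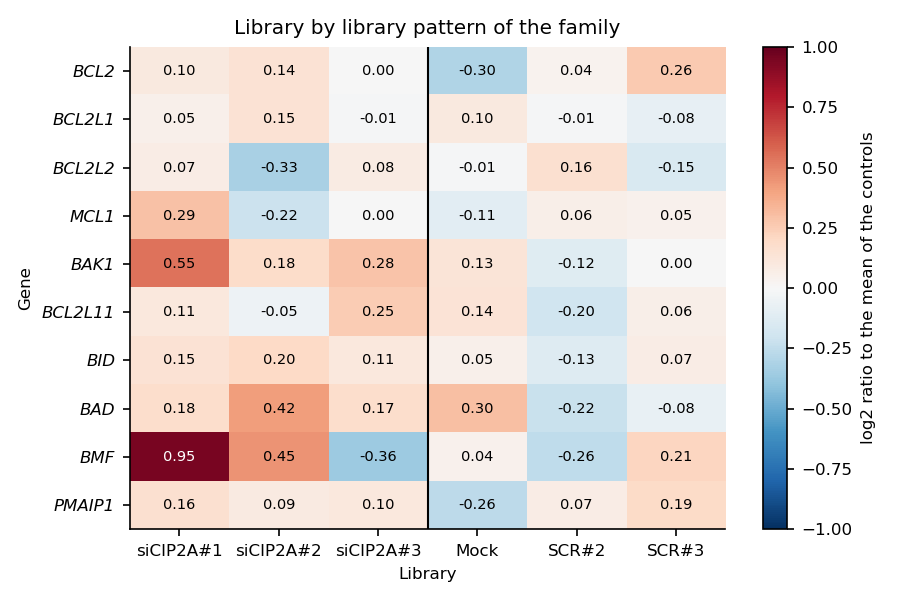
Log2 ratio of each library to the mean of the 3 controls for each member (rows), with siCIP2A libraries left of the line and control libraries right of it; red is above and blue below the control mean. BMF with siCIP2A#1, at 0.95, is the strongest entry, and the mock departs from both non-targeting siRNAs for BCL2, BAD and PMAIP1.

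The controls differed among themselves for some members. The non-targeting siRNAs set against the mock gave a log2 difference of -0.45 for BAD (SE 0.17, unadjusted edgeR p of 0.0240, adjusted p of 0.742), 0.40 for PMAIP1 (SE 0.15, adjusted p of 0.753) and 0.46 for BCL2. No gene of 13562 was called (background 0%) by edgeR, with 856 (6.31%) at an unadjusted p under 0.05, BAD and PMAIP1 among them, and DESeq2 called 3. With the mock left out, the spread came from the 2 non-targeting libraries alone (1 residual degree of freedom) and the calls were more: 3 members with siCIP2A#1 (MCL1 0.24, BAK1 0.61 and BAD 0.33), 4 with siCIP2A#2 (BCL2L1 0.19, BCL2L2 -0.35, MCL1 -0.27 and BAD 0.57) and 2 with siCIP2A#3 (BAK1 0.35 and BAD 0.33). The backgrounds of that fit were 13.8%, 22.4% and 9.65% of 13782 genes.

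The wider apoptotic pathway was read from 5 lists of genes, none of which had a gene called with the CIP2A siRNAs together. Of 16 other genes listed as BCL2 relatives or interacting proteins, 12 were tested and 0 were called with the CIP2A siRNAs together. Among the tested, 7 were above 0, with a median log2 difference of 0.03. BAX, the other effector, had 32.5, 40.2 and 29.3 CPM with siCIP2A#1, #2 and #3, against 32.5, 28.7 and 31.3 CPM in Mock, SCR#2 and SCR#3. BBC3 (PUMA, a BH3-only protein) had 6.33, 6.88 and 3.48 CPM with siCIP2A#1, #2 and #3, against 4.86, 4.09 and 4.14 CPM in Mock, SCR#2 and SCR#3. Like BMF it was lowest with siCIP2A#3, where 28.6% of all tested genes stood below all controls. Unlike BMF it was highest with siCIP2A#2. BNIP3, a hypoxia-induced mitophagy receptor, had the smallest p of this list at -0.50 (unadjusted edgeR p of 0.0215), and -0.26 without the mock. Its paralog BNIP3L stood at -0.22, and BNIPL, with 2 to 24 counts a library, at -1.06. The genes of this list with the smallest p for each siRNA were not called either. They were BNIP2 (-0.64, adjusted p of 0.0915), BIK (0.85) and BBC3 (0.51) with siCIP2A#1, BNIPL (-2.98), BNIP3 (-0.88) and BBC3 (0.66) with siCIP2A#2, and BNIP3L (-0.31), BNIPL (-1.17) and HRK (-0.75) with siCIP2A#3. BIK had only 13 to 41 counts a library and HRK 13 to 38. BCL2A1, BCL2L10, BCL2L14 and BCL2L15 had at most 2 counts and were not tested.

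Among 20 genes of the mitochondrial arm, the caspases and their inhibitors, 0 were called, 9 were above 0 and the median log2 difference was -0.02. XIAP, which blocks caspases, stood at 0.20 (unadjusted edgeR p of 0.0421), CYCS, which encodes cytochrome c, at -0.26, and DFFA, which encodes the inhibitor of the apoptotic nuclease, at -0.16. CYCS was -0.63 with siCIP2A#2 (unadjusted edgeR p of 2.61e-04, adjusted p of 0.121), and it was called in 2 of 7 alternatives, by DESeq2 and without the mock. Beside it with siCIP2A#2 stood BIRC3 (-0.76) and BIRC2 (-0.45), inhibitors of apoptosis. With siCIP2A#1 the smallest p-values belonged to CYCS (-0.31), the apoptosome scaffold APAF1 (-0.42) and DFFA (-0.32), and with siCIP2A#3 to APAF1 (0.31), XIAP (0.23) and CASP10 (-0.96). CASP10 had only 8 to 22 counts a library. Of 10 death receptor genes, 9 were tested, 0 were called and 4 were above 0 with a median of -0.03. TNFRSF10B, a receptor for TRAIL, stood at 0.21 (unadjusted edgeR p of 0.0386), TNFRSF21 at 0.19 and CFLAR, an inhibitor of caspase-8, at -0.09. For single siRNAs the list gave TNFRSF10B (0.27), TNFRSF10A (0.28) and FAS (-0.18) with siCIP2A#1, TNFRSF1A (0.33), TNFRSF10A (-0.33) and TNFRSF21 (0.23) with siCIP2A#2, and CFLAR (-0.27), TNFRSF10B (0.20) and TNFRSF21 (0.25) with siCIP2A#3, none called. Of 20 protein partners and turnover factors of the members, 19 were tested, 0 were called and 11 were above 0 with a median of 0.01. VDAC1, the membrane channel, stood at -0.17, and the kinases PIM1 and RPS6KA1, which phosphorylate BAD, at 0.13 and 0.16. For single siRNAs the smallest p-values were those of YWHAB (-0.26), FBXW7 (0.38) and HUWE1 (-0.13) with siCIP2A#1, VDAC1 (-0.35), YWHAZ (-0.16) and VDAC3 (-0.16) with siCIP2A#2, and RPS6KA1 (0.30), FBXW7 (0.26) and YWHAB (-0.10) with siCIP2A#3. FBXW7 and HUWE1 are ubiquitin ligases for MCL1, YWHAB and YWHAZ are proteins that hold phosphorylated BAD, and none of these values was called.

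Of 13 transcription factors known to drive members, 12 were tested and 0 were called with the CIP2A siRNAs together, with 10 above 0 and a median log2 difference of 0.06. DDIT3 (CHOP, a stress factor known to induce BCL2L11) rose with siCIP2A#2 by 0.96 (SE 0.12, 1.95-fold, edgeR adjusted p of 0.0332; called in 7 of 7 alternatives), at 26.5, 52.7 and 29.8 CPM with siCIP2A#1, #2 and #3, against 27.2, 27.2 and 26.4 CPM in Mock, SCR#2 and SCR#3. ATF4, which induces DDIT3, had 127, 181 and 139 CPM with siCIP2A#1, #2 and #3, against 140, 142 and 131 CPM in Mock, SCR#2 and SCR#3. ATF3, another stress factor, stood at 0.63 with siCIP2A#2 and -0.36 with siCIP2A#3. STAT3, which drives MCL1 and BCL2L1, stood at 0.42 with siCIP2A#1 (adjusted p of 0.210), and MYC and JUN at 0.32 and 0.27 with siCIP2A#3. The part of DDIT3 in the values of the members was not tested.

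For the 3 members with the widest range, the genes of most similar pattern were found by the root mean square difference of their log2 ratios to the control mean over the 6 libraries, among 12096 other genes. For BMF these were QPRT (0.11), an enzyme of NAD synthesis, AVIL (0.14), an actin-binding protein, and SLIT2 (0.14), a secreted guidance protein. The log2 ratio of QPRT was 1.00 with siCIP2A#1 and -0.23 with siCIP2A#3, beside 0.95 and -0.36 for BMF in the same libraries. For BAK1 they included ANKRD9 (0.06) and C7orf43 (0.08), and for BAD they were CROCC (0.03), SNX8 (0.03) and SH3GL1 (0.04).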

How the data were processed

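Polyadenylated RNA from 6 HCC38 libraries was prepared with a stranded mRNA kit, per the labels' protocols. Reads were handled with bcl2fastq 2.17, STAR 2.5.4b and Subread 1.5.1 on hg38, per the submitters' processing notes, which give no roles or settings. The deposited table holds the authors' raw read counts for 26485 genes, not normalized. Coordinates and exon lengths came from GENCODE 29.

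The counts were tested with edgeR 4.0.16 (R 4.3.3), using TMM scaling, filterByExpr with a minimum count of 10 and a robust quasi-likelihood fit. P-values were adjusted by Benjamini-Hochberg over 13562 genes, with a threshold of 0.05. The group fit had 4 residual degrees of freedom, the fit of each siRNA 2 and the mock fit 3. Levels are CPM, and log2 CPM used a prior count of 2. A count of 0 allows up to 3 counts, 0.165 to 0.214 CPM a library, counting error only. Alternatives were RLE and upper quartile scaling, limma-voom (limma 3.58.1), DESeq2 1.42.0, other filters, a replicate block, a separate mock and leaving out each library. The alternatives for the siRNA pairs (beyond DESeq2 and RLE) and for the ratio were chosen after seeing the data. No 2 libraries of a group agreed within counting noise (chi-square per degree of freedom 3.20 to 18.0).

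The members, gene lists and motifs were chosen with earlier results of these data known. Named genes are the members, CIP2A, DDIT3, ATF4, list genes called or among the 3 smallest p-values of their list in a comparison with the controls, and the 3 genes nearest in pattern. Relatives outside that rule, GPR137, COL1A1 and other marker genes were named after their values were seen. Some genes that the rule picks are not reported here.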

Additional observations from a re-analysis of the deposited data

Results flagged for a closer look

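BMF differed between CIP2A siRNAs under the same controls: the siCIP2A#1 library exceeded the siCIP2A#3 library by 1.31 on the log2 scale (edgeR adjusted p of 0.0476), by a test of that difference itself. The siCIP2A#1 library was above the controls and the siCIP2A#3 library below all of them.

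CIP2A differed between siRNAs as well: its log2 difference of siCIP2A#1 from siCIP2A#2 was -1.49 (edgeR adjusted p of 0.0302), that is, less CIP2A transcript with siCIP2A#1. BMF, at 76.2 and 52.7 CPM in these libraries, differed by 0.50 between them (adjusted p of 0.391). Between siCIP2A#1 and siCIP2A#3, the pair with the BMF call, CIP2A differed by -0.24 and BMF by 1.31. For siCIP2A#2 from siCIP2A#3, CIP2A differed by 1.25 and BMF by 0.81. The part of the CIP2A level in the BMF values was not tested.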

How the results depend on the processing

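Of 377 values of members under alternatives, 340 kept their direction and their side of the threshold, 2 lost a call, 14 gained one and 21 changed direction. With the CIP2A siRNAs together, edgeR called 0 genes, DESeq2 3, the fit without a filter 3, the replicate block 1, and leaving out a library gave 0 to 1 (1 without siCIP2A#2). The same-numbered libraries did not pair (correlations of their deviations were -0.117, -0.128 and 0.00762). Under the block, BAK1 was 0.34 and BMF 0.36, with no member called.

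With siCIP2A#1, #2 and #3 each, edgeR called 16, 10 and 1 genes and DESeq2 75, 61 and 29. Leaving out a control gave 85 to 1896, 40 to 3088 and 32 to 1330, the highest each time without the mock. Between siRNAs (siCIP2A#1 from #2, #1 from #3 and #2 from #3) edgeR called 2, 69 and 0 genes, DESeq2 89, 144 and 96, and edgeR without a filter 156, 305 and 211. Limma-voom called 1 for the first pair, and leaving out a control gave 101 to 2302, 213 to 2477 and 108 to 3026. For the non-targeting siRNAs against the mock, DESeq2 called 3. Each fit that leaves out a control has 1 residual degree of freedom in place of 2. The cause of these changes, and of their spread between the controls left out, was not tested.

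Directions changed for values near 0. With the mock as a separate level, BCL2 was -0.0732, MCL1 -0.0142 and PMAIP1 -0.0146. MCL1 with siCIP2A#3 was 0.00254 with RLE and 0.00256 with DESeq2. Leaving out 1 library for the group gave BCL2 -0.0735 to 0.20, BCL2L2 -0.13 to 0.0682, MCL1 -0.11 to 0.15 and PMAIP1 -0.0150 to 0.20. For siCIP2A#1 it gave BCL2 -0.0549 to 0.21 and BCL2L2 -0.0104 to 0.15. For siCIP2A#2 it gave BCL2 -0.00440 to 0.26, BCL2L11 -0.15 to 0.0210 and PMAIP1 -0.0394 to 0.18. For siCIP2A#3 it gave BCL2 -0.15 to 0.11, BCL2L1 -0.0540 to 0.0349, MCL1 -0.0572 to 0.0249, PMAIP1 -0.0289 to 0.19 and COL1A1 -0.0953 to 0.00795.

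CIP2A between siCIP2A#1 and siCIP2A#2 lost its call with limma-voom (-1.48, adjusted p of 0.0514). The survival over death ratio differed by -0.38, and by -0.61 to -0.17 under its alternatives. Of the 10 members, BCL2 rests on the fewest reads, 55 to 98 a library.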
